A study of Mus musculus with 12 samples.

Results

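The 10 genes described here make up the core of the mammalian circadian clock and part of its direct output: Arntl (also called Bmal1), Clock and Npas2, the period genes Per1, Per2 and Per3, the cryptochromes Cry1 and Cry2, and the transcription factors Dbp and Hlf. They were chosen by a list of names drawn up with earlier results of these data known, and each was read from the brightest of its probe sets that carry a single gene symbol. Each of the 10 had 1 such probe set, so signal decided none of these choices. They are 10 of the 26989 genes measured in this way. Hearts of male C57BL/6J mice aged 10 weeks were taken 2 weeks after surgery, and total RNA from each was hybridised to 1 Clariom D array, which gives 12 arrays in 4 groups of 3 biological replicates. The groups are Adam12 knockout hearts after transverse aortic constriction (TAC, a band around the aorta that loads the left ventricle with pressure), Adam12 knockout hearts after sham surgery, wild type hearts after TAC and wild type hearts after sham surgery. Adam12 encodes a membrane-bound metalloprotease. How the knockout allele was made, and the hour of the day, light cycle and feeding state at which hearts were taken, are not given in the sources used here.

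As background, the clock is a transcriptional feedback loop that runs in nearly every cell. Arntl pairs with Clock or with Npas2 to activate genes that carry an E-box, among them the Per and Cry genes, Dbp and the nuclear receptors Nr1d1 and Nr1d2. Per and Cry proteins then inhibit the pair, and Nr1d1 and Nr1d2 repress Arntl, so that Arntl transcript peaks at about the opposite phase to Dbp. Dbp, Hlf and their relative Tef bind D-boxes and drive output genes, and in the mouse heart the clock is known for its rhythms in substrate use and in ion channel expression.

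The 250 bases before the annotated transcription start were available for 9 of the 10 genes, in 13 promoters from RefSeq on build GRCm38.p6. They were searched on both strands for the E-box CACGTG, the related E-prime box CACGTT, the D-box TTANGTAA, the receptor element ANTNGGTCA to which Nr1d1 and ROR proteins bind, and the cyclic AMP response element TGACGTCA. Over all 32851 promoters of that table, 6.02% held the E-box, 3.85% the E-prime box, 2.06% the D-box, 1.87% the receptor element and 1.55% the cyclic AMP response element. The promoters of 4 repressor genes are printed here because they hold the clock motifs, with each motif in capitals and the strand of the gene written from 5′ to 3′. Per3 (chr4:151044666-151044915, minus strand) holds a pair of D-boxes, at 205 to 198 and at 158 to 151 bases before the start. Per1 (chr11:69098699-69098948, plus strand) holds an E-box at 166 to 161 bases before the start. The window before another annotated start of Per1 (chr11:69099902-69100151, plus strand) holds none of these motifs. Cry1 (chr10:85185055-85185304, minus strand) holds an E-box at 60 to 55 and an E-prime box at 79 to 74 bases before the start, with the E-prime box read on the other strand. Cry2 (chr2:92434070-92434319, minus strand) holds an E-prime box at 166 to 161 bases before the start, also on the other strand.
Per3 promoter: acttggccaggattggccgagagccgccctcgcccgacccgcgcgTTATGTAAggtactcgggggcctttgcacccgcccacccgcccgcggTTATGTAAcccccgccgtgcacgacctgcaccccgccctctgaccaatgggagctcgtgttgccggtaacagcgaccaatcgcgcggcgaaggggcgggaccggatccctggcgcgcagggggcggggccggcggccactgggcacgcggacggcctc
Per1 promoter: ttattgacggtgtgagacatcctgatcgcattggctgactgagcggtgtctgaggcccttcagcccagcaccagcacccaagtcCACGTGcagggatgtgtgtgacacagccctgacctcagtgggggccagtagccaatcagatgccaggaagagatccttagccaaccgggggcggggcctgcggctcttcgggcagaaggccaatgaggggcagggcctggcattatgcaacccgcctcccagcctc
Cry1 promoter: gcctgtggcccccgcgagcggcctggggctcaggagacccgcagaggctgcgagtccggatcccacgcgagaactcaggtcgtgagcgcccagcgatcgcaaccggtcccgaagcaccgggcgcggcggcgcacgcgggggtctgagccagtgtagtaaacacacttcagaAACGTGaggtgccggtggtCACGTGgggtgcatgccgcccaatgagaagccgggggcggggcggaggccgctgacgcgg
Cry2 promoter: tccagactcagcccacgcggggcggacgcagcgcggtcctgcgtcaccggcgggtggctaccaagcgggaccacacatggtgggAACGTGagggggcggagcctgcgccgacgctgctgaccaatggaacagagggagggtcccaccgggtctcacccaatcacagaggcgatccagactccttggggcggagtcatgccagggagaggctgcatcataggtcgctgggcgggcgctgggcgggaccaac
Of the other members, Hlf holds the cyclic AMP response element at 9 to 2 bases before its start, and none of these letters is in the windows of Arntl, Clock, Npas2 and Dbp. A match is a stretch of letters and was not tested as a binding site.

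The arrays were alike in scale, with medians over all genes between 5.35 and 5.5 log2 signal and correlations between 2 arrays from 0.9886 to 0.9973. Adam12, read from a probe set that carries a further symbol (5830403F22Rik), had 4.33 ± 0.08 in knockout TAC, 4.35 ± 0.04 in knockout sham, 4.70 ± 0.12 in wild type TAC and 4.54 ± 0.07 log2 signal in wild type sham hearts (SD, n = 3 each). The knockout arrays reached 4.398 at most and the wild type arrays 4.462 at least, so this probe set was lower in every knockout heart, with low signal in all groups. Heart muscle markers were bright (Myh6 averaged 19.34 and Tnnt2 19.62 log2 signal), whereas the skeletal muscle markers Myh1, Myh2, Myh4 and Tnnt3 averaged between 5.03 and 5.27, near the array median. Ucp1, a brown fat marker, averaged 3.57, a level at which 5.32% of genes were dimmer.

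Arntl, the activator on which the loop depends, had log2 signals of 10.06, 10.64 and 9.93 in knockout TAC, 9.32, 9.38 and 9.86 in knockout sham, 9.76, 10.57 and 7.16 in wild type TAC and 9.01, 8.74 and 9.84 in wild type sham hearts. The 3 knockout TAC arrays lay above all 3 knockout sham arrays, while the wild type TAC group held both a value close to the highest and the lowest of all 12 values. Wild type TAC replicates 2 and 3 differed by 3.41 on the log2 scale, or 10.7-fold. The group means were 10.21 ± 0.38 in knockout TAC, 9.52 ± 0.29 in knockout sham, 9.16 ± 1.78 in wild type TAC and 9.20 ± 0.57 in wild type sham hearts (SD, n = 3 each).

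Npas2, the alternative partner of Arntl, had 8.34, 8.98 and 8.38 in knockout TAC, 8.19, 8.11 and 8.36 in knockout sham, 7.71, 8.83 and 6.43 in wild type TAC and 7.97, 7.86 and 8.21 log2 signal in wild type sham hearts. Wild type TAC replicates 2 and 3 were again far apart, by 5.30-fold. The groups overlapped in each comparison of TAC with sham within a genotype and of knockout with wild type within a surgery. Clock, the usual partner, had 13.43, 13.57 and 13.32 in knockout TAC, 13.29, 13.30 and 13.48 in knockout sham, 13.33, 13.50 and 12.96 in wild type TAC and 13.26, 13.11 and 13.36 log2 signal in wild type sham hearts. Its values spanned 1.53-fold over the 12 arrays, against 11.2-fold for Arntl and 5.85-fold for Npas2, and its groups overlapped.

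Among the repressors, Per3 had 6.76, 5.74 and 6.65 in knockout TAC, 7.29, 7.14 and 6.80 in knockout sham, 7.24, 6.12 and 8.17 in wild type TAC and 7.43, 7.83 and 6.54 log2 signal in wild type sham hearts. The knockout TAC arrays lay below the knockout sham arrays, narrowly, and wild type TAC replicate 3 was the highest of the 12. Per2 had 6.67, 5.57 and 6.15 in knockout TAC, 6.51, 6.61 and 6.37 in knockout sham, 6.79, 5.58 and 7.72 in wild type TAC and 6.70, 6.83 and 6.10 log2 signal in wild type sham hearts. Its groups overlapped in every comparison, and wild type TAC replicates 2 and 3 again stood at opposite ends of their group. Per1, a period gene that glucocorticoids also induce, had 8.97, 7.75 and 7.75 in knockout TAC, 8.32, 8.08 and 8.74 in knockout sham, 7.40, 7.85 and 8.66 in wild type TAC and 8.18, 7.82 and 7.84 log2 signal in wild type sham hearts. For Per1 it was knockout TAC replicate 1 that stood highest, and the order of its arrays was not that of Per2 or Per3.

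The cryptochromes varied over a narrower range. Cry2 had 6.23, 6.07 and 6.29 in knockout TAC, 6.49, 6.70 and 6.48 in knockout sham, 6.31, 6.11 and 6.78 in wild type TAC and 6.67, 6.67 and 6.47 log2 signal in wild type sham hearts. The knockout TAC values lay below all knockout sham values, and wild type TAC replicate 3 was the highest array. Cry1 had 6.63, 6.56 and 6.58 in knockout TAC, 6.59, 6.44 and 6.68 in knockout sham, 7.18, 6.81 and 6.64 in wild type TAC and 6.64, 6.52 and 6.67 log2 signal in wild type sham hearts. It was the one member for which the knockout TAC arrays all lay below the wild type TAC arrays, with 6.63 as the highest knockout TAC and 6.64 as the lowest wild type TAC value.

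Dbp, an output gene driven through E-boxes, had 7.85, 6.60 and 7.95 in knockout TAC, 8.81, 8.64 and 8.30 in knockout sham, 8.19, 7.19 and 10.60 in wild type TAC and 9.34, 9.77 and 7.60 log2 signal in wild type sham hearts. It had the widest range of the members, 16.0-fold over the 12 arrays and 10.6-fold within the wild type TAC group, and the knockout TAC arrays lay below the knockout sham arrays. Hlf, its relative among the D-box binding factors, had 6.31, 5.72 and 6.03 in knockout TAC, 6.90, 7.02 and 6.89 in knockout sham, 6.84, 6.09 and 7.74 in wild type TAC and 7.29, 7.13 and 6.91 log2 signal in wild type sham hearts. The knockout TAC arrays of Hlf all lay below the knockout sham arrays, and the wild type groups overlapped.

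**Figure D1:**
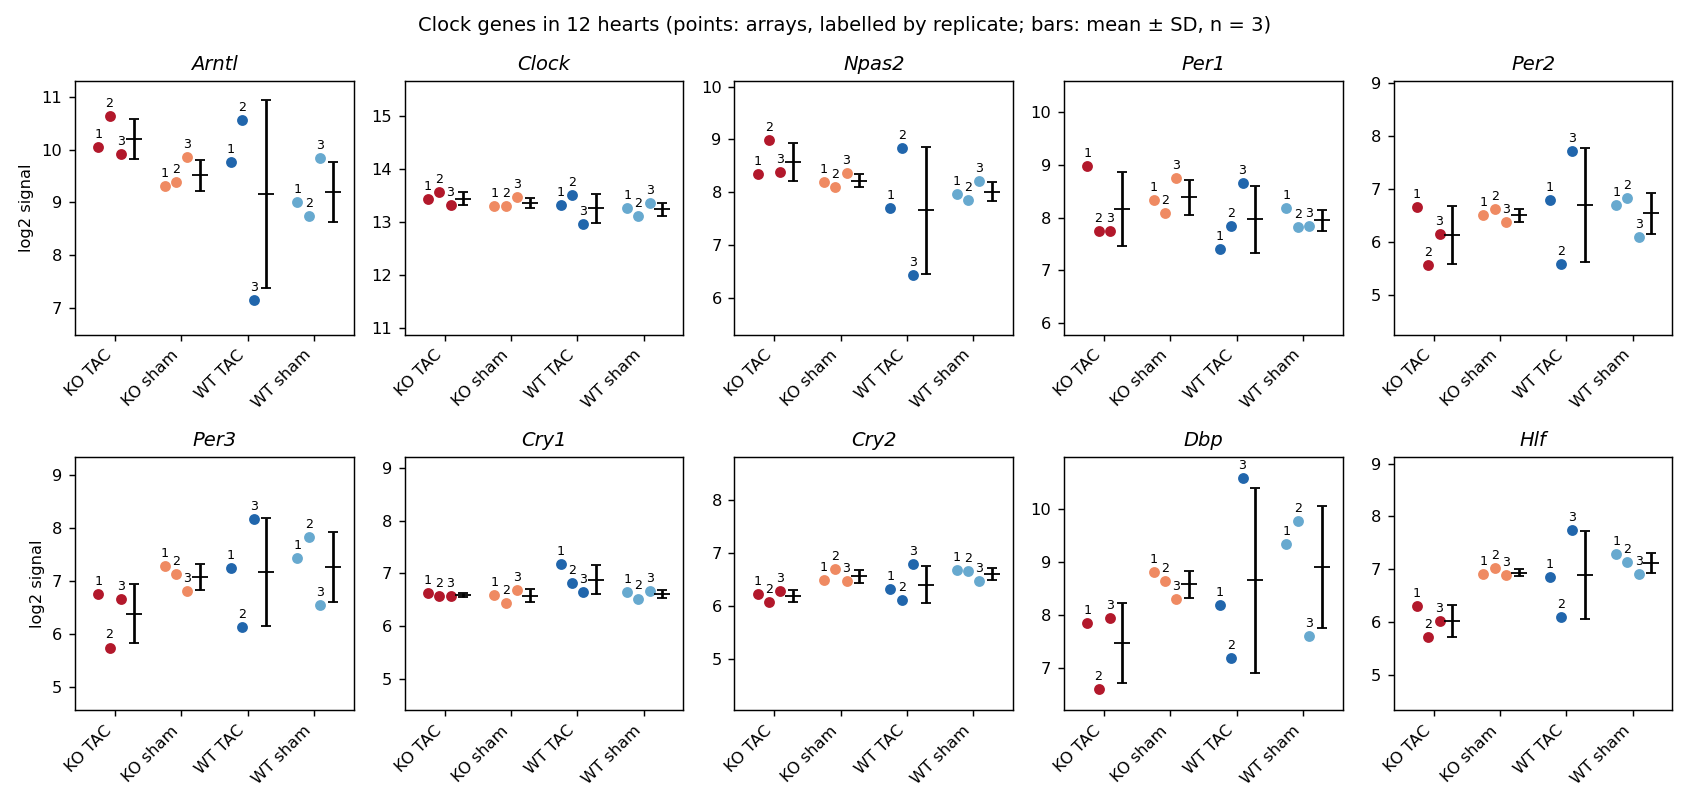
Log2 signal (vertical axis) of the 10 clock genes in the 12 hearts, 1 panel a gene, with arrays as points numbered by replicate and bars for the mean ± SD of each group (n = 3); every panel spans the same number of log2 units. Wild type TAC replicates 2 and 3 lie 3.41 apart for Arntl and for Dbp, on opposite sides of their group mean.

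No member passed the test in any of the 7 comparisons by limma at an adjusted p under 0.05. In knockout hearts TAC against sham called 12.8% of all genes, and 0 of the 10 clock genes, of which 2 (Cry2 and Hlf) had an unadjusted p under 0.05, against 6597 of all genes. In wild type hearts it called 0.178% of all genes and 0 of 10 members, with 1 (Cry1) at an unadjusted p under 0.05, against 3330 of all genes. Averaged over genotypes it called 13.6% of all genes and 0 of 10 members, with 2 (Cry2 and Hlf) at an unadjusted p under 0.05, against 6624 of all genes. Knockout against wild type after TAC called 0.0111% of all genes and 0 of 10 members, with 2 (Cry1 and Hlf) at an unadjusted p under 0.05, against 3928. The same contrast after sham called 0% of genes by limma, with 0 members and 1495 genes at an unadjusted p under 0.05, and averaged over surgeries it called 0%, with 1 member (Hlf) and 2739 genes. The interaction of genotype and TAC called 0% by limma, with 0 members and 2963 genes at an unadjusted p under 0.05.

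Hlf had the smallest adjusted p of the members for TAC in knockout hearts and for genotype after TAC. Its TAC difference was -0.92 (95% interval -1.61 to -0.23) in knockout hearts with a limma adjusted p of 0.0846, and -0.22 (-0.91 to 0.47) in wild type hearts with an adjusted p of 0.837. The difference between these 2 responses was -0.70 (SE 0.45, limma adjusted p = 0.593), and after TAC the knockout hearts stood -0.87 from the wild type (SE 0.32, adjusted p = 0.222). For Cry2 the TAC difference averaged over genotypes was -0.28 (SE 0.11, adjusted p = 0.111), and it was -0.36 in knockout and -0.20 in wild type hearts. For Cry1 the TAC difference was 0.02 in knockout and 0.27 in wild type hearts (SE 0.12 each, adjusted p = 0.959 and 0.402). Hlf was called in knockout hearts when only the 6 knockout arrays were fitted (limma adjusted p = 0.00881), a fit that called 3051 of all genes. With replicate 2 or 3 of the wild type TAC hearts dropped Hlf was called as well (limma adjusted p = 0.0177 and 0.0109). Cry2 was called with replicate 3 dropped (limma adjusted p = 0.0349). All genes called were 3323 without replicate 2 and 3688 without replicate 3. The wild type arrays entered this comparison only through the shared estimate of spread. Knockout against wild type after TAC called Npas2 at 1.498 (adjusted p = 0.0336) and Hlf at -1.275 (adjusted p = 0.0213) once replicate 2 of the wild type TAC hearts was dropped, a fit that called 774 of all genes, against 3 with all arrays. With replicate 3 of that group dropped, Arntl, Cry2 and Hlf were called for TAC averaged over genotypes, together with 3848 of all genes.

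The members with the widest spread had intervals too wide to place their differences. For Dbp the TAC difference was -1.12 (95% interval -2.81 to 0.58) in knockout hearts and -0.25 (-1.94 to 1.45) in wild type hearts, with limma adjusted p = 0.436 and 0.937. For Arntl it was 0.69 (-0.77 to 2.15) in knockout and -0.03 (-1.497 to 1.43) in wild type hearts, with adjusted p = 0.603 and 0.993. Per3 had -0.70 (-1.73 to 0.34) in knockout and -0.09 (-1.12 to 0.94) in wild type hearts. Clock, whose spread was narrower, had 0.08 (-0.203 to 0.369) in knockout and 0.02 (-0.265 to 0.307) in wild type hearts. Npas2 had 0.35 in knockout and -0.35 in wild type hearts. Per2 had -0.37 in knockout and 0.16 in wild type hearts, and Per1 had -0.23 in knockout and 0.02 in wild type hearts. These wild type values have no settled sign, since it turned for Arntl, Npas2, Per1 and Per2 when wild type TAC replicate 3 was dropped, and for Clock, Per3, Dbp and Hlf when replicate 2 of that group was.

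Groups that did not overlap give another reading of the same comparisons. TAC and sham arrays did not overlap for 5 members in knockout hearts (Arntl, Per3, Cry2, Dbp and Hlf), where 32.3% of all genes did not overlap, and for 0 members in wild type hearts, where 16.1% did not. Knockout and wild type arrays did not overlap for 1 member after TAC (Cry1), against 19.2% of all genes, and for 0 members after sham, against 12.3%. In knockout hearts the activator Arntl was the one of the 5 with higher values after TAC, while the repressors Per3 and Cry2 and the outputs Dbp and Hlf had lower ones. The median difference of the 10 members was -0.30 in knockout hearts, against -0.03 over all genes, and -0.06 in wild type hearts, against 0.02 over all genes.

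**Figure D2:**
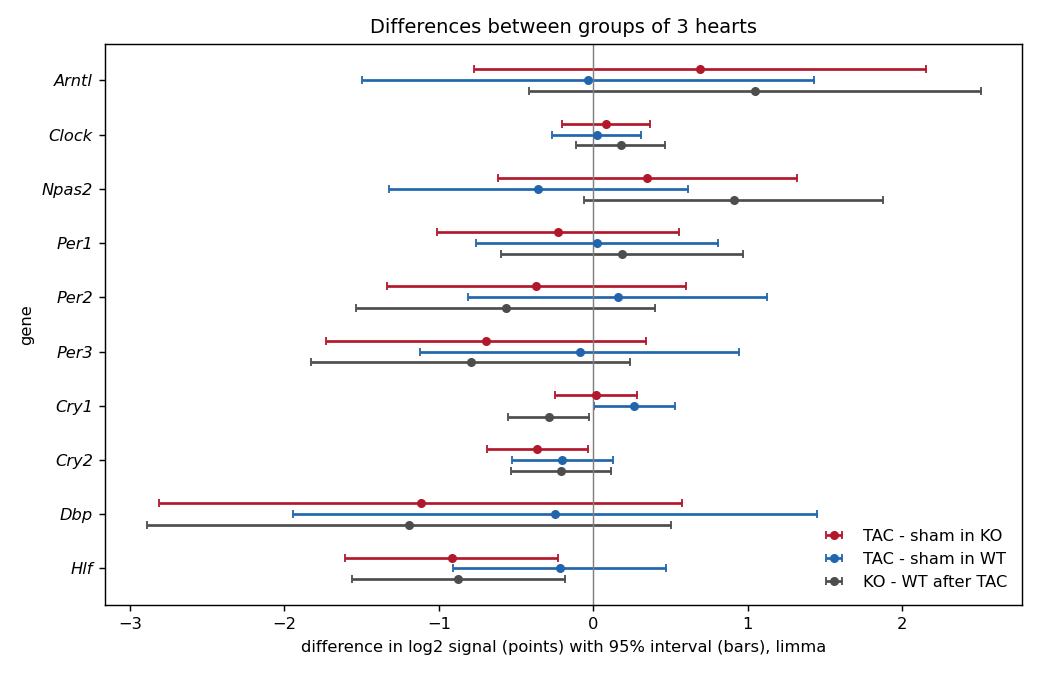
Differences in log2 signal (horizontal axis) for the 10 clock genes, as points with 95% intervals from limma, for TAC minus sham in knockout and in wild type hearts and for knockout minus wild type after TAC (3 hearts a group). The intervals of Arntl and Dbp span more than those of Clock, Cry1 and Cry2, and that of Hlf in knockout hearts runs from -1.61 to -0.23.

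The clock genes ranked high among all genes in the spread between hearts of the same group, a description for which no test was run. The SD within groups (8 residual degrees of freedom) was 1.12 for Dbp, 0.97 for Arntl, 0.68 for Per3, 0.64 for Npas2, 0.64 for Per2 and 0.51 log2 units for Per1. The median over all 26989 genes was 0.14 and the 99th percentile 0.47 log2 units. These 6 of the 10 members lay above 99% of genes, and Hlf, with an SD of 0.45, lay above 98.9%. Dbp ranked 7 and Arntl 13 from the most variable of all genes. Cry2, Clock and Cry1 had SDs of 0.20, 0.17 and 0.15 log2 units, which 75.6%, 65.1% and 58.1% of genes fell below. All 10 members were brighter than the median gene. With wild type TAC replicates 2 and 3 both left out, a choice made after seeing the data, 3 members lay above 99% of genes.

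**Figure D3:**
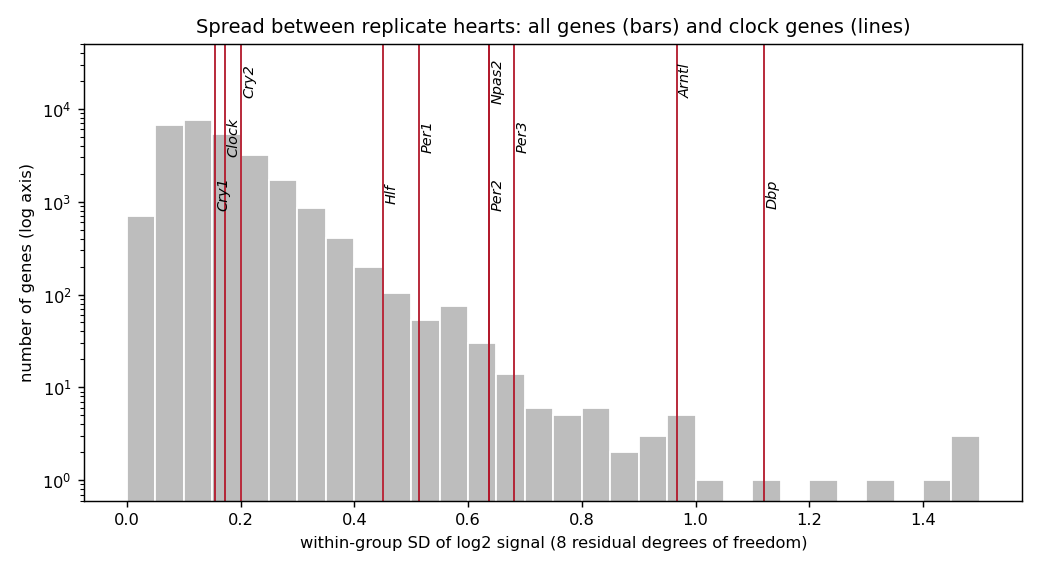
Number of genes (vertical log axis) by SD of log2 signal within groups (horizontal axis) for all 26989 genes as bars, with the 10 clock genes as lines. Dbp at 1.12 and Arntl at 0.97 lie far beyond the 99th percentile of 0.47, and Cry1, Clock and Cry2 lie within the bulk.

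The spread had a direction: within groups, hearts with more Arntl had less Dbp. Each array was set as the deviation from the mean of its own group, and 3 relations to Arntl were tested by exact permutation of arrays within groups (1296 arrangements, 2-sided, p adjusted over the 3). The 3 were Dbp and Per3, taken as opposite in phase to Arntl, and Npas2, taken as in phase with it. The other members were not tested in this way. The genes were listed with earlier results of these data known, so these p-values are no independent support. Dbp ran against Arntl with Pearson's r = -0.954 (exact permutation p = 0.000772, the smallest that can be reached, adjusted p = 0.00231) and Spearman's rho = -0.972 (adjusted p = 0.00231). Per3 also ran against it, with r = -0.899 (p = 0.00231, adjusted p = 0.00309, exact permutation) and rho = -0.916 (adjusted p = 0.00347). Npas2 ran with it, with r = 0.951 (p = 0.00309, adjusted p = 0.00309, exact permutation) and rho = 0.846 (adjusted p = 0.00772). Without the 2 arrays farthest from the median of Arntl's deviations, which were wild type TAC replicates 3 and 2, the third array of that group had no deviation of its own and 9 arrays remained. There r was -0.972 for Dbp, -0.972 for Per3 and 0.859 for Npas2 (adjusted exact permutation p = 0.0139, 0.0185 and 0.0185, the smallest p possible being 0.00463). For Npas2 rho was then 0.70 with an exact permutation p of 0.0787. The labels name no array batch, so no within-batch value could be given.

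The order of the 3 replicates showed the same relation group by group. In all 4 groups Clock ordered the replicates exactly as Arntl did, and Dbp ordered them exactly the other way round. For Clock the values of knockout sham replicates 1 and 2 were close, at 13.294 and 13.303 log2 signal. Per3 had the opposite order in 3 groups, Per2 and Cry2 in 2 and Hlf in 1, and Npas2 had the same order in 2 and Cry1 in 1. The share of all genes with such orders was not counted. In wild type TAC hearts Arntl, Clock and Npas2 were highest in replicate 2 and lowest in replicate 3, while Per2, Per3, Cry2, Dbp and Hlf were highest in replicate 3 and lowest in replicate 2. Per1 followed Arntl in neither direction in any group. In wild type sham hearts it was replicate 3 that had the highest Arntl (9.84) and the lowest Dbp (7.60), and in knockout TAC hearts replicate 2 (Arntl 10.64, Dbp 6.60).

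**Figure D4:**
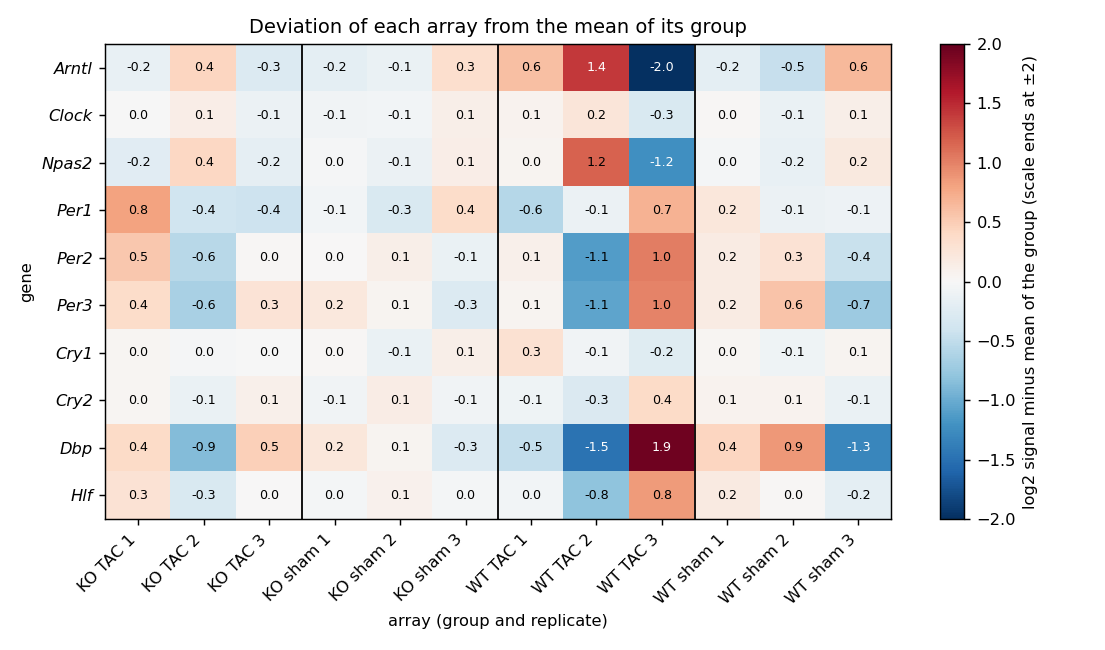
Deviation of each array (columns, by group and replicate) from the mean of its group in log2 units, for the 10 clock genes (top to bottom), with colours that end at ±2. Wild type TAC replicate 3 has the lowest Arntl and the highest Dbp deviations, and replicate 2 of the same group has the reverse.

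**Figure D5:**
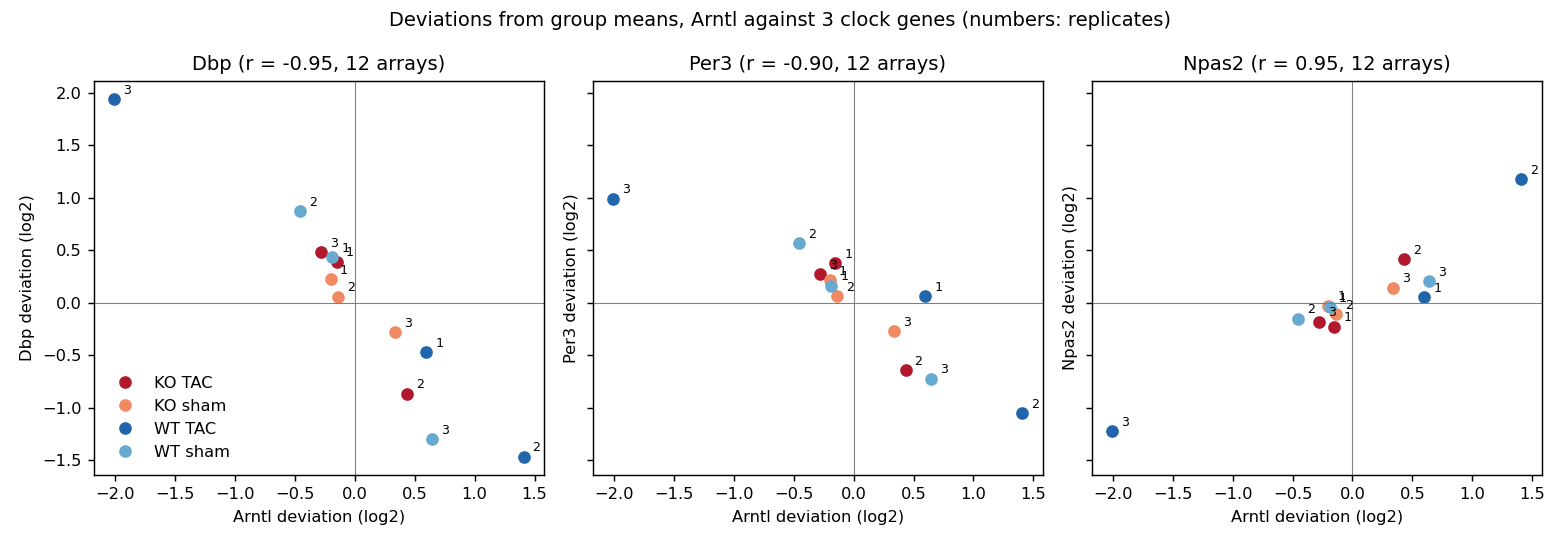
Deviations from the group mean in log2 units for Dbp, Per3 and Npas2 (vertical axes) against Arntl (horizontal axes) over the 12 arrays, coloured by group and numbered by replicate. Dbp and Per3 fall as Arntl rises (r = -0.954 and -0.899) and Npas2 rises with it (r = 0.951), with wild type TAC replicates 3 and 2 at the ends.

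Markers of other cell types were read on the same arrays. The mean of 5 of the 6 listed fibroblast markers that could be read (Col1a1, Col1a2, Dcn, Lum and Tcf21) was 11.83, 12.42 and 11.03 in wild type TAC hearts, the same order of replicates as Arntl. In the other 3 groups the orders differed: the mean was 13.03, 12.84 and 12.65 in knockout TAC, 10.96, 10.94 and 10.74 in knockout sham and 11.06, 11.02 and 10.80 log2 signal in wild type sham hearts. After TAC in knockout hearts, where 12.8% of all genes were called, 4 of these 5 fibroblast markers, 3 of 4 measured macrophage markers and 2 of 5 endothelial markers were called higher. In the same comparison 3 of 6 measured cardiomyocyte markers and 1 of 5 atrial markers were called lower. The mean of 5 atrial markers ranged from 11.57 to 13.16 in knockout TAC, from 12.04 to 14.34 in knockout sham, from 11.21 to 12.24 in wild type TAC and from 11.39 to 13.39 log2 signal in wild type sham hearts. The part of these cell types in the values of the clock genes, their regulators and the rhythmic outputs was not tested, and fewer cells of a type and less RNA per cell cannot be told apart in whole hearts.

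The further regulators of the clock were taken as a list of 20 genes, of which 15 were measured, and the others were not analysed here. This list was drawn up with earlier results of these data known and is described by counts and medians only. With TAC averaged over genotypes, 2 of the 15 rose and 1 fell by limma, against 13.6% of all genes called, and the median difference of the list was 0.02. None of the 15 was called by limma for TAC in knockout hearts, where 12.8% of all genes were called, or in wild type hearts, where 0.178% were. None was called for genotype after TAC either, where 0.0111% of all genes were, or in the other 3 comparisons, where no gene was. Nr1d1, the nuclear receptor that represses Arntl, had 9.89, 9.36 and 9.81 in knockout TAC, 10.77, 10.70 and 10.78 in knockout sham, 9.41, 9.50 and 10.82 in wild type TAC and 11.24, 11.26 and 10.44 log2 signal in wild type sham hearts. Replicate 3 of both wild type groups stood apart from the other two, and the knockout groups did not overlap. Nr1d1 fell by 1.07 (SE 0.24, limma adjusted p = 0.0115) averaged over genotypes, with differences of -1.06 in knockout and -1.07 in wild type hearts that missed the threshold on their own (adjusted p = 0.0619 and 0.219).

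The transcriptional repressors Bhlhe40 and Bhlhe41, which compete with Arntl and Clock for E-boxes, were the regulators that rose. Bhlhe40 had 9.32, 9.18 and 9.61 in knockout TAC, 8.997, 8.74 and 9.19 in knockout sham, 8.95, 9.15 and 9.68 in wild type TAC and 8.19, 8.71 and 7.56 log2 signal in wild type sham hearts. It rose by 0.75 averaged over genotypes (SE 0.19, limma adjusted p = 0.0211), and the wild type groups did not overlap whereas the knockout groups did. Bhlhe41 had 8.47, 8.42 and 8.501 in knockout TAC, 8.19, 7.99 and 7.74 in knockout sham, 8.30, 8.19 and 8.77 in wild type TAC and 7.97, 8.30 and 7.69 log2 signal in wild type sham hearts. It rose by 0.46 (SE 0.13, adjusted p = 0.0311), with knockout groups that did not overlap. The call of Bhlhe40 was lost without knockout sham replicate 2 or knockout TAC replicate 3 (adjusted p = 0.052 and 0.0519). That of Bhlhe41 was kept when knockout sham replicate 1, either of wild type TAC replicates 1 and 2, or wild type sham replicate 2 was dropped, and was lost with each of the other 8 arrays dropped (adjusted p from 0.0505 to 0.0782). Tef, the third D-box binding factor, differed by -0.71 in knockout and by -0.17 in wild type hearts (SE 0.31 each, limma adjusted p = 0.182 and 0.88), and its values in wild type TAC hearts were 7.39, 6.64 and 8.23, in the order of Dbp.

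Of 15 output genes reported to cycle in the heart or other tissues, 13 were measured, and the others were not analysed here. The list was drawn up with earlier results of these data known, so its counts and medians are descriptions and no independent support. After TAC 5 of the 13 fell in knockout hearts by limma, against 12.8% of all genes called, and their list had a median difference of -0.96, against -0.03 over all genes. None was called in wild type hearts, where the median was -0.38 against 0.02 over all genes. Nampt, the rate-limiting enzyme of NAD salvage, had 12.74, 12.60 and 12.76 in knockout TAC, 13.67, 13.69 and 13.90 in knockout sham, 13.50, 12.93 and 13.50 in wild type TAC and 13.69, 13.57 and 13.80 log2 signal in wild type sham hearts. It fell by 1.05 in knockout hearts (SE 0.14, limma adjusted p = 0.000826). Dgat2, which makes triglyceride, fell by 1.18 there (SE 0.16, adjusted p = 0.000793), with 14.07, 13.86 and 14.04 in knockout TAC and 15.25, 14.97 and 15.30 log2 signal in knockout sham hearts. For both genes all knockout TAC arrays lay below all knockout sham arrays.

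Kcnh2, a repolarising potassium channel, fell by 0.88 in knockout hearts (SE 0.16, limma adjusted p = 0.00347), Pik3r1, the regulatory subunit of phosphoinositide 3-kinase, by 1.02 (SE 0.24, adjusted p = 0.0173) and Klf15, a transcription factor of cardiac metabolism, by 0.72 (SE 0.17, adjusted p = 0.0149). The call of Pik3r1 was lost with any of knockout TAC replicates 2 and 3 and knockout sham replicates 1 and 2 dropped, and that of Klf15 with knockout TAC replicate 2 or knockout sham replicate 3 dropped (adjusted p from 0.0511 to 0.0802). Klf15 also lost its call when only the knockout arrays were fitted (limma adjusted p = 0.0539). The count of called outputs was 3 when knockout TAC replicate 2 was dropped and 8 when wild type TAC replicate 3 was. Those fits called 2098 and 3688 of all genes. Tspan4, named after its values were seen, was higher rather than lower among the 8. Averaged over genotypes 7 of the 13 fell, against 13.6% of all genes called, and the 6 with the smallest p were the same 5 and the mitochondrial carrier Ucp3 (-1.61, SE 0.34, limma adjusted p = 0.00877). The median difference of the list was then -0.67, against -0.004 over all genes. Unlike Dbp, Nampt had a SD within groups of 0.19 and Dgat2 of 0.22 log2 units. None of the 13 was called in the comparisons between genotypes or in the interaction by limma, and the smallest p after TAC were those of Dgat2, whose knockout against wild type difference was -0.92 (SE 0.16, adjusted p = 0.0592), and of Nampt, at -0.60 (SE 0.14, adjusted p = 0.0782). The interaction was -1.02 for Dgat2 (SE 0.22, limma adjusted p = 0.259) and -0.67 for Nampt (SE 0.20, adjusted p = 0.278).

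A fit with the log2 signal of Arntl as a covariate, added after seeing the data, compares the groups at equal Arntl. It takes out what moved linearly with Arntl within groups, and with it any part of the effect of surgery that followed Arntl. The Arntl values of knockout TAC and knockout sham hearts did not overlap, so their comparison at equal Arntl rests on the fitted line. The difference of Dbp between knockout and wild type hearts after TAC was -0.04 (SE 0.27) in this fit, against -1.19 (SE 0.77) without the covariate, and its TAC difference in knockout hearts was -0.36 (SE 0.26), against -1.12 (SE 0.77). For Hlf the TAC difference in knockout hearts was -0.62 (SE 0.14, limma adjusted p = 0.0188). Nr1d1 kept a difference of -0.92 (SE 0.11, adjusted p = 0.000527) averaged over genotypes, of -0.75 (adjusted p = 0.0121) in knockout and of -1.08 (adjusted p = 0.0211) in wild type hearts. The standard errors of Dbp, Hlf and Nr1d1 were smaller in this fit than without the covariate. For TAC in knockout hearts those of the outputs Dgat2, Klf15 and Ucp3 were larger. Those of Kcnh2 (0.123 against 0.156) and Pik3r1 (0.208 against 0.245) were smaller, and that of Nampt was close to unchanged (0.141 against 0.142). Arntl deviated most from its group mean in wild type TAC replicates 3 and 2, and the covariate fit was not repeated without them.

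Likeness to Arntl and to Dbp over the 12 arrays was read among 9652 genes brighter than the median, leaving out the 10 clock genes themselves, predicted genes and olfactory receptors. Of these candidates the gene closest to Arntl was Adam19, another member of the Adam12 protease family, with r = 0.92, followed by Elmo2, an adaptor of cell motility, at 0.899. Adam19 had 9.26, 10.10 and 9.67 in knockout TAC, 8.84, 8.88 and 9.36 in knockout sham, 9.34, 9.69 and 7.88 in wild type TAC and 8.44, 8.76 and 8.91 log2 signal in wild type sham hearts. The next were n-R5s211, Ypel2, Leo1 and Pisd, down to 0.856. Coq10b, a coenzyme Q binding protein, was the most opposite of the candidates at -0.949, followed by Tef at -0.921 and then Pgm2l1, Phka1, Ppat and St8sia6, up to -0.846. For Dbp the closest candidate was Tef at 0.952, then Phka1, a subunit of phosphorylase kinase, at 0.912, Nr1d2 at 0.908, Gstt2, Coq10b and Rcsd1, down to 0.876. The candidates most opposite to Dbp were Elmo2 at -0.909 and Adam19 at -0.904, then Rbm28, Eif4g3, Thumpd3 and Osbpl7, up to -0.85. These r are descriptions across arrays that share the group differences and the 2 extreme wild type TAC arrays, and carry no test.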

How the data were processed

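Heart RNA of 12 mice was measured on 1 Clariom D array each. The deposited table holds log2 signals for 65527 probe sets, made with Affymetrix Expression Console per the submitters' processing notes, and its version, normalization and summarization are not given in the sources used here. The log2 scale was read from the range of the values. Control probe sets (6732) were left out, and of the other 58795 those with 1 symbol (27268) were reduced to the brightest for each of 26989 genes, with no filter on dim genes. The 10 clock genes and both lists were chosen with earlier results of these data known. Groups came from the labels. All 12 arrays were fitted in limma 3.58.1 (R 4.3.3) with 1 mean for each group, and p-values were adjusted by Benjamini-Hochberg over all genes, called under 0.05. The 3 arrays of each group limit the precision. Named genes are the 10 members, up to 6 called genes of each list with the smallest p (up to 3 as values where none was called), and the 6 genes most and least like Arntl and Dbp among those brighter than the median, passing over members, predicted genes and olfactory receptors. Alternatives were quantile normalization, median centring, dropping dim genes, a trended and robust variance, array weights, a replicate block, the atrial marker Myl7 as a covariate, other probe set choices, fits of only the groups compared, each array left out, and the 2 added ones named in the text. The labels give replicate numbers but no pairing, so the numbers were not taken as pairs. With group means removed, same-numbered arrays of different groups correlated at -0.07 to 0.32, and 10 of 18 pairs exceeded 0.1. The replicate block was applied to the group comparisons only, so a shared effect of replicate number on the relations of Arntl was not tested.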

Additional observations from a re-analysis of the deposited data

How the results depend on the processing

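No clock gene was called in wild type hearts, between genotypes after sham or on average, or in the interaction under any alternative run. In knockout hearts TAC against sham called 1 clock gene (Hlf) with array weights, with only the knockout arrays and with Arntl as a covariate. These fits called 4440, 3051 and 2803 of all genes, against 3444 in the main fit. With single arrays left out the count of clock genes was 0 to 2. The 2 were among 3688 genes called without wild type TAC replicate 3. Averaged over genotypes the count was 2 (Cry2 and Hlf) with array weights and with Arntl as a covariate. There 4511 and 3352 of all genes were called, against 3673 in the main fit. With single arrays left out it was 0 to 3. The 3 were Arntl, Cry2 and Hlf without wild type TAC replicate 3, where 3848 of all genes were called. Knockout against wild type after TAC gave 0 to 2 with single arrays left out. The 2 were among 774 genes called without wild type TAC replicate 2, against 3 genes in the main fit. Clock regulators called on average were 5 with array weights (4511 of all genes called) and with Arntl as a covariate (3352), against 3. With single arrays left out they were 1 to 5. The 5 came without wild type TAC replicate 3 (3848 of all genes called). The 1 came without knockout sham replicate 2 or without knockout TAC replicate 3 (3208 and 3202). Rhythmic outputs called in knockout hearts were 8 with only the knockout arrays (3051 of all genes called) and with Arntl as a covariate (2803), against 5. Klf15 was not among the 8 with only the knockout arrays. With single arrays left out they were 3 to 8. The 3 came without knockout TAC replicate 2 (2098 of all genes called) and the 8 without wild type TAC replicate 3 (3688). Members with an SD above 99% of genes were 3 with wild type TAC replicates 2 and 3 both left out, against 6. With the replicate block 0 clock genes were called in any comparison. The call of Bhlhe41 averaged over genotypes was lost there (difference 0.462, limma adjusted p = 0.0524). When correlations with arrays of the other groups were averaged by number, 9 of the 12 arrays had the highest mean for their own number. That is a hint from the data only. The remaining changes of sign concern differences that were called in no fit shown here. With Arntl as a covariate the TAC difference in knockout hearts was -0.033 for Clock, -0.083 for Npas2, 0.036 for Per2 and -0.046 for Cry1, and knockout minus wild type after TAC was 0.048 for Per2. For Cry1 in knockout hearts it was -0.026 after quantile normalization, -0.001 after centring, -0.001 with array weights and -0.038 with Myl7 as a covariate, and -0.05 to 0.071 with single arrays left out. In wild type hearts array weights gave 0.738 for Arntl, 0.18 for Npas2, -0.086 for Per1 and -0.395 for Per2, centring gave -0.02 for Clock and -0.016 for Per1, and Myl7 as a covariate gave -0.015 for Clock, 0.097 for Per3 and 0.094 for Dbp. With both arrays left out, which leaves 1 wild type TAC array that is assumed to vary like the other groups, they were 0.565 for Arntl and -0.542 for Per1. With single arrays left out the wild type difference ran from -0.737 to 0.97 for Arntl, -0.098 to 0.171 for Clock, -0.943 to 0.259 for Npas2, -0.321 to 0.307 for Per1, -0.355 to 0.716 for Per2, -0.584 to 0.437 for Per3, -1.217 to 0.487 for Dbp and -0.642 to 0.184 for Hlf. Knockout minus wild type after TAC ran from -0.218 to 0.534 for Per1. The cause of these changes was not tested. Over the 44 single-gene differences followed through the alternatives, the threshold was passed anew in 10 combinations of difference and alternative and lost in 22. These counts include the gains and losses named above. The precision is set by 3 arrays a group.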
